A study of Mus musculus with 9 samples.

Results

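The glycolysis and hypoxia response genes are a set of 43 mouse genes, each matched by its symbol to an Ensembl identifier among the 54838 of the count table (for Aldoa, the one of 2 that holds nearly all of its counts). The rule that picks them uses their names. It holds 25 glycolytic genes (glucose and lactate carriers, the enzymes between glucose and lactate, and the kinases that set the flux), 6 genes of the hypoxia-inducible factor (HIF) machinery, and 12 other genes known to respond to low oxygen. RNA was measured in 9 libraries from 3 groups, each of 3 biological replicates, of PDA530 Met, a line grown out of a liver metastasis of pancreatic ductal adenocarcinoma in a male KPC mouse of mixed 129/SvJae/C57Bl/6 background. The design text spells the parental cells PDA50 Met, and they are taken here as the same line. The knockout group is clone E4, in which Zdhhc20, the gene of a palmitoyltransferase, was edited by CRISPR/Cas9. The control group is clone C5, which received those guide RNAs by nucleofection as well, escaped editing and was grown from a single cell. The parental group is the uncloned line. All cells were untreated and grown in DMEM with 10% FBS, and none was exposed to low oxygen according to the labels. The knockout and the control are 1 clone each, so the knockout and the traits of these clones cannot be told apart. Where p-values are given, they measure the spread between replicate libraries of a clone or line.

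Glycolysis splits glucose into pyruvate, and lactate dehydrogenase with the monocarboxylate carriers turns pyruvate into lactate and carries it out of the cell. HIF is a pair of an alpha subunit and the constant subunit ARNT. With oxygen at hand, the prolyl hydroxylases (EGLN) mark the alpha subunit, VHL binds it, and it is degraded; with little oxygen it persists, enters the nucleus and binds the hypoxia response element, whose core reads ACGTG or GCGTG. Most glycolytic enzymes and the pyruvate dehydrogenase kinase PDK1 are textbook HIF targets, as are Bnip3, Egln3, Car9 and Adm. Pancreatic ductal adenocarcinoma is known as a poorly perfused tumour with high glycolytic activity.

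The letters of the hypoxia response element core are shown for 6 members that differ in their values below. Windows of 250 bases before to 50 bases after each RefSeq transcript start (build GRCm38.p6) were searched for ACGTG and GCGTG on both strands, and overlapping matches were joined. A match on the other strand reads CACGT or CACGC. Bnip3, Ddit4, Pfkp and Pdk1 spread widely among the control libraries, Pgk1 was lower in the knockout than in both other groups, and Pdk3 was the 1 member called higher in the knockout than in the control. Each stretch lies before the RefSeq start, runs 5′ to 3′ in the direction of the gene, and has the matched letters in capitals. Matches that cross or follow the start are not shown, such as that at -2 in this Pdk1 window. The other Pdk1 window held none.
Bnip3, chr7:138909512-138909648, minus strand: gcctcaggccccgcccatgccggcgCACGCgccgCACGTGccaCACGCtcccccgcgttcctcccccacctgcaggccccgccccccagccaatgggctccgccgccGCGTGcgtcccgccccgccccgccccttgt
Ddit4, chr10:59951856-59951982, minus strand: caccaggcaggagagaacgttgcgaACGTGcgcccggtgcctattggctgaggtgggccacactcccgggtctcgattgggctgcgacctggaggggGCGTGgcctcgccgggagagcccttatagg
Pfkp, chr13:6648772-6648932, minus strand: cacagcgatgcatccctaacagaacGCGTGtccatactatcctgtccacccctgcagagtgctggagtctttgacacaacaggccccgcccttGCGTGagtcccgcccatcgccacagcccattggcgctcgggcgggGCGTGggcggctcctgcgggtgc
Pdk1, chr2:71873121-71873175, plus strand: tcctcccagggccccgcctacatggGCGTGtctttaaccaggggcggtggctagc
Pgk1, chrX:106186925-106186998, plus strand: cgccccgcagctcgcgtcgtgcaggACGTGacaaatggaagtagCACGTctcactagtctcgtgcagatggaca
Pdk3, chrX:93832174-93832338, minus strand: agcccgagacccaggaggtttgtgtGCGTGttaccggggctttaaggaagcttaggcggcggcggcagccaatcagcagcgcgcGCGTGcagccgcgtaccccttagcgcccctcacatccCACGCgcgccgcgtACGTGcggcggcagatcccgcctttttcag

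Of the 43 members, 39 had a window, and Slc2a3, Epas1, Ndrg1 and Bnip3l did not. ACGTG or GCGTG was present in at least 1 window of 34 of these 39 members (87.2%), and of 46.7% of all 27025 genes with a window. ACGTG alone was present in 26 members (66.7%) and in 21.8% of all genes. The members' windows were also richer in G and C, with a median of 62.8% against 52.7%, and both motifs hold mostly G and C. The share was 87.5% of 24 glycolytic genes, 80.0% of 5 genes of the HIF machinery and 90% of 10 other hypoxia-inducible genes. Among the 8 tested members with a window that spread at least 4-fold between control libraries the share was 87.5%, close to that of all members. Adm, which was not tested, is left out there, though it spread as widely and its window held matches. A match is a description of letters and no evidence of binding. Pdk3 held such matches, as did members that were called lower in the knockout such as Pgk1, and the windows of Car12, Eno2 and Vhl, also called lower than in the control, held none.

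The libraries held 16525869 to 23192701 estimated counts, and no pair of replicates agreed within sampling noise (the smallest chi-square per gene between replicates was 5). Zdhhc20 itself had 37.5, 33.9 and 42.5 counts per 1000000 (CPM) in the knockout, 123, 85.8 and 120 in the control and 75.3, 81.2 and 90.7 in the parental cells, so RNA of the edited gene was lower but present in the libraries labelled knockout. The keratins Krt7, Krt8, Krt18 and Krt19, markers of ductal epithelium, were present in every library, and Epcam and Cldn4 were nearly absent. The 10 ductal markers summed to 4420 to 4550 CPM in the knockout, 7290 to 9750 in the control and 6830 to 8310 in the parental cells. They did not all go 1 way. Krt8, Krt18, Krt19, Cdh1 and Muc1 were called lower in the knockout than in both other groups. Epcam (34, 9 and 11 counts in the knockout, control and parental cells) and Cldn4 (82, 7 and 8) were called higher. The 9 fibroblast markers summed to 0.934 to 4.19 CPM, with Col1a2, Col3a1, Dcn, Lum and Thy1 at 0 counts in all 9 libraries. Exons of 16 members, Slc2a1, Pfkp, Pkm, Hif1a, Bnip3, Car9 and Higd1a among them, overlap those of another gene, so their counts can hold reads of that gene. In such bulk samples, fewer cells with a transcript and less of it per cell cannot be told apart.

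The 3 control libraries stood apart from each other in the members more than in the genes at large, and every comparison with the control rests on this spread. The members were highest in control replicate 3, intermediate in replicate 1 and lowest in replicate 2 in 33 of the 40 members with enough counts to be tested, and in 29.7% of all 13153 tested genes. Control replicate 3 was above replicate 2 in 37 of 40 members, with a median log2 difference of 0.91, against 0.01 over all genes, of which 50.5% were higher in replicate 3. The difference passed 2-fold upwards in 19 members and in 9.32% of all genes. Pfkfb3 (a log2 difference of -1.51), Car9 (-0.16) and Slc16a1 (-0.13) were the 3 members that were lower in replicate 3.

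The spread among control libraries reached all 3 sets of members. From replicate 2 to replicate 3 the median log2 difference was 0.88 for the 23 tested glycolytic genes, 0.65 for the 6 genes of the HIF machinery and 1.11 for the 11 tested other hypoxia-inducible genes. Aldoc, an aldolase, spread most of the tested members, with a highest control library 17 times the lowest. Bnip3, a mitophagy receptor, followed at 12.6 times, Ankrd37 at 9.52, Ddit4, an inhibitor of mTORC1 signalling, at 8.21, Pfkp at 7.63, Eno2 at 6.09, Pdk1 at 5.98, Ndrg1 at 5.13, the lactate exporter Slc16a3 at 5 and Epas1 at 4.12. At the other end Eno1 spread by 1.13 times and Vhl by 1.14 times. In the parental cells replicate 3 was above replicate 1 in 33 of 40 members (50.3% of all genes), with a median log2 difference of 0.28, and in the knockout replicate 3 was above replicate 2 in 30 of 40 (48.8% of all genes), with a median of 0.15. The 10 ductal markers summed to 9590, 7290 and 9750 CPM in control replicates 1, 2 and 3, so they were lowest in the same library. The labels give no library or sequencing batch that separates these libraries, and what sets them apart was not tested.

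**Figure D1:**
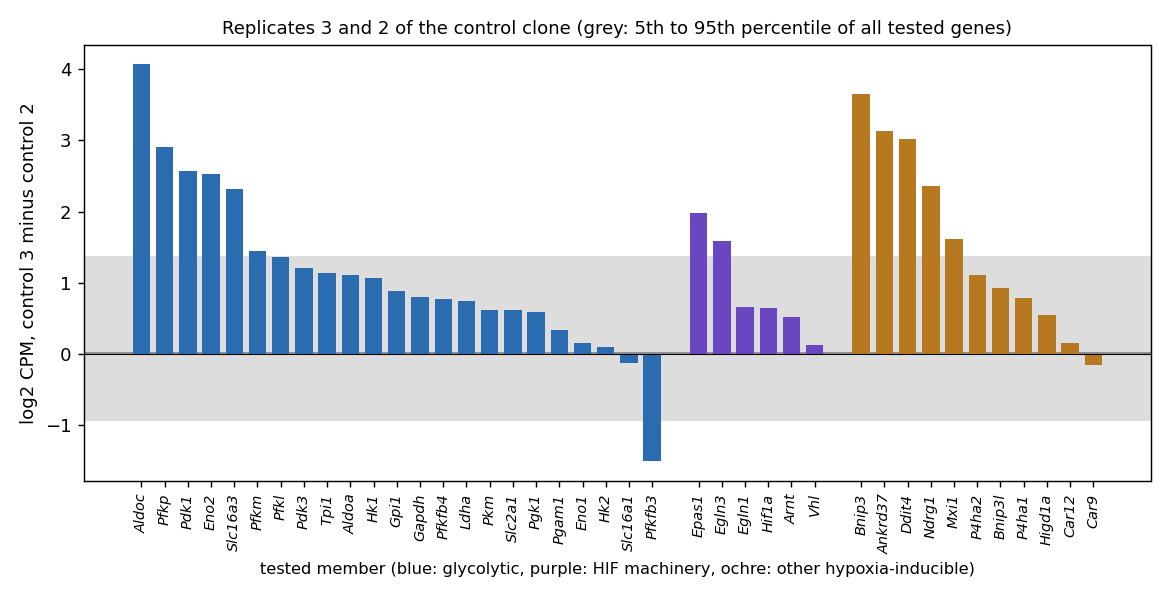
The bars give log2 CPM of control replicate 3 minus that of control replicate 2 for the 40 tested members, grouped by set, and the grey band spans the 5th to the 95th percentile of all 13153 tested genes (-0.94 to 1.36). Of the bars 37 lie above 0, Aldoc and Bnip3 reach farthest, and Pfkfb3 lies below the band.

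**Figure D2:**
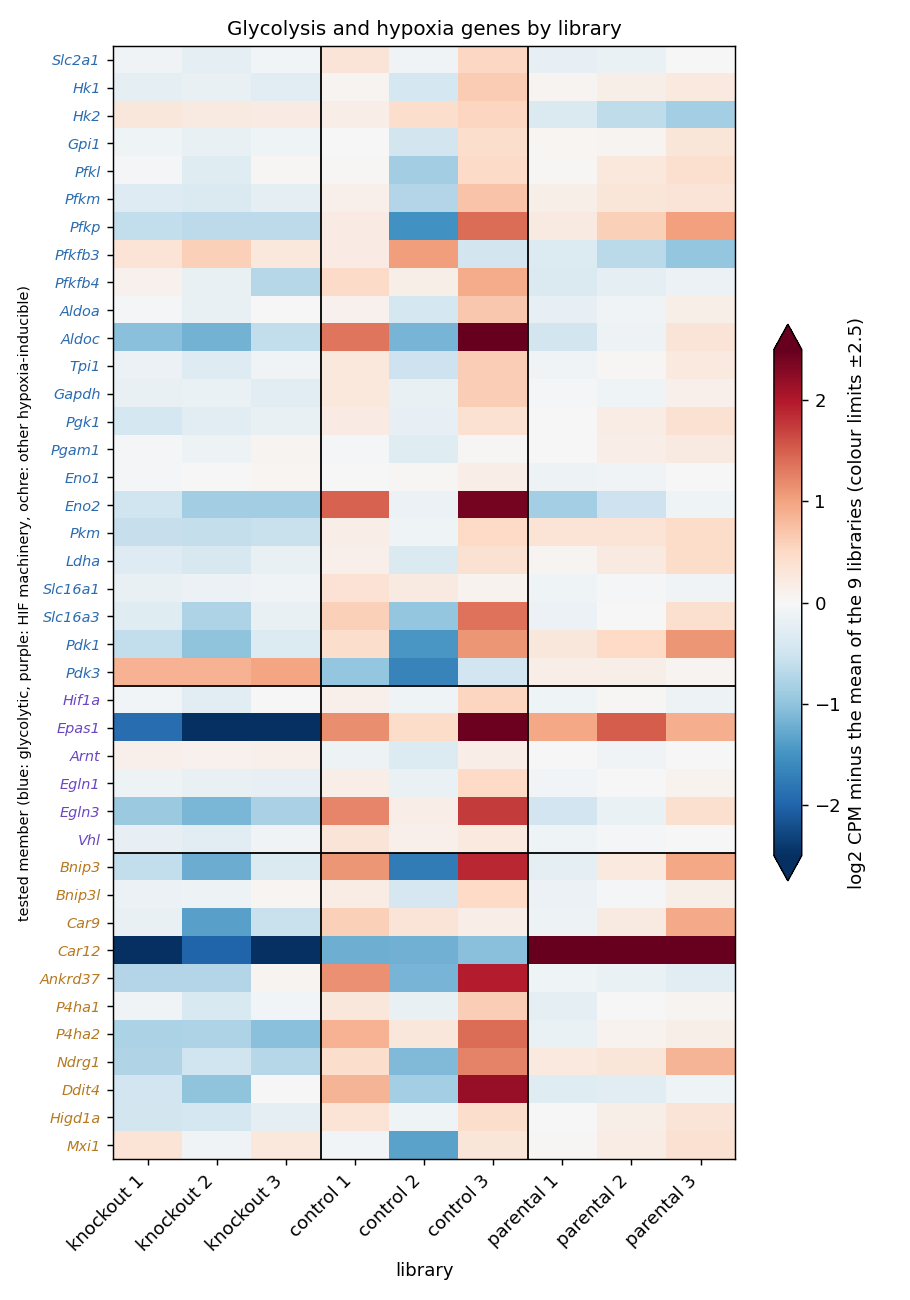
Each cell gives the log2 CPM of 1 tested member (rows, by set) in 1 library (columns, by group) minus its mean over the 9 libraries, with colours limited at ±2.5. Control replicate 3 is red and control replicate 2 blue in most rows, Epas1 is blue in the 3 knockout libraries, and Car12 is red in the 3 parental libraries.

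Across the set, 35 of 40 tested members had a negative log2 fold change for knockout against control. A member was called where the Benjamini-Hochberg adjusted p of edgeR's quasi-likelihood test over 13153 genes was under 0.05. Against the control, 16 of 40 members were called, 1 higher and 15 lower, beside 42.9% of all genes called (18.7% higher and 24.2% lower). Against the parental cells, 10 were called, 3 higher and 7 lower, beside 31.4% of all genes (13.1% higher and 18.3% lower). Between control and parental cells, 9 were called, 7 higher and 2 lower in the control, beside 21.4% (10.4% and 11%). With a fold of at least 2 required as well, 8, 3 and 4 members were called in these comparisons, beside 14%, 10.6% and 6.47% of all genes. The median log2 fold change of the tested members was -0.45 for knockout against control, -0.26 for knockout against parental and 0.16 for control against parental, where the median of all genes was -0.02, -0.01 and 0.01. The summed level of the 43 members was 9520 to 10300 CPM in the knockout, 10100 to 16800 in the control and 12400 to 14600 in the parental cells.

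These counts moved with single libraries. Without knockout replicate 1 or 2, 10 members were called against the control (32.1% and 34.3% of all genes). Without knockout replicate 1 or 2 or parental replicate 2 or 3, 4 were called for knockout against parental (18.7% to 22.2% of all genes). Without control replicate 2, 32 of the same 40 members were called against the control, all but Pdk3 lower, where 53.5% of all genes were called. Between control and parental cells 22 of the 40 were called (29.2% of all genes). The gain against the control was Hk1, Gpi1, Pfkm, Pfkp, Aldoa, Tpi1, Ldha, Slc16a3, Pdk1, Hif1a, Egln1, Bnip3, Bnip3l, Ankrd37, P4ha1 and Ndrg1, with log2 fold changes from -0.36 (Gpi1) to -2.24 (Bnip3). Between control and parental cells it was Slc2a1, Aldoa, Aldoc, Tpi1, Gapdh, Slc16a3, Hif1a, Egln1, Bnip3, Bnip3l, Ankrd37, P4ha1 and Ddit4, from 0.33 (Egln1) to 2.39 (Aldoc). Adm, not tested with all libraries, was also called in both comparisons of that fit. It passed the filter there through control replicates 1 and 3, where it is high, and is not counted here. Without control replicate 3, 12 were called against the control (45.5% of all genes) and 9 between control and parental cells (30.8%). The median of control against parental cells over the same 40 members was 0.34 without replicate 2 and -0.08 without replicate 3. Knockout against parental does not use the control values but shares their estimate of spread: fitted on those 2 groups alone, 25 members and 53.5% of all genes were called, instead of 10 and 31.4%. Control replicates 1 and 3 lay above all 3 knockout libraries in 33 and 36 of 40 members, and replicate 2 in 13, where each did so in 42.8%, 44.4% and 44.6% of all genes. Control replicate 2 lay below all 3 parental libraries in 27 members and in 40.7% of all genes. Replicate 3 lay above all 3 in 32 members (40.5% of all genes), and replicate 1 in 22 (37.7%). Which of the control libraries is the unusual one was not tested.

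A group stood apart in a member that was called higher, or lower, than in each of the other groups. The knockout was apart in 7 members, Pdk3 higher and Pgk1, Pkm, Epas1, Car12, P4ha2 and Higd1a lower, beside 21.5% of all genes (8.19% higher, 13.4% lower). The control was apart in 7, with Pfkfb4, Eno2, Slc16a1, Egln3, Vhl and P4ha2 higher and Pdk3 lower, beside 13.4% (7.01% higher, 6.41% lower). The parental cells were apart in 2, Car12 higher and Hk2 lower, beside 5.85% (3.7% higher, 2.14% lower). P4ha2, Pdk3 and Car12 were called in all 3 comparisons. Car12 (1, 11 and 417 counts) passed the filter on low counts through the parental libraries, where it is high, so its calls add no support. Where libraries of 2 groups are said below not to overlap, this is a description. Over all genes, libraries did not overlap in 51.6% for knockout against control, 61.5% for knockout against parental and 37.3% for control against parental. On GRCm38 in GENCODE M21, Hk2 (ENSMUSG00000000628) lies at chr6:82725025-82774454, Pkm (ENSMUSG00000032294) lies at chr9:59656368-59679375 and Pdk3 (ENSMUSG00000035232) lies at chrX:93764607-93832201. Epas1 (ENSMUSG00000024140) lies at chr17:86753700-86833410, P4ha2 (ENSMUSG00000018906) lies at chr11:54100095-54131665 and Car12 (ENSMUSG00000032373) lies at chr9:66713686-66766845.

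**Figure D3:**
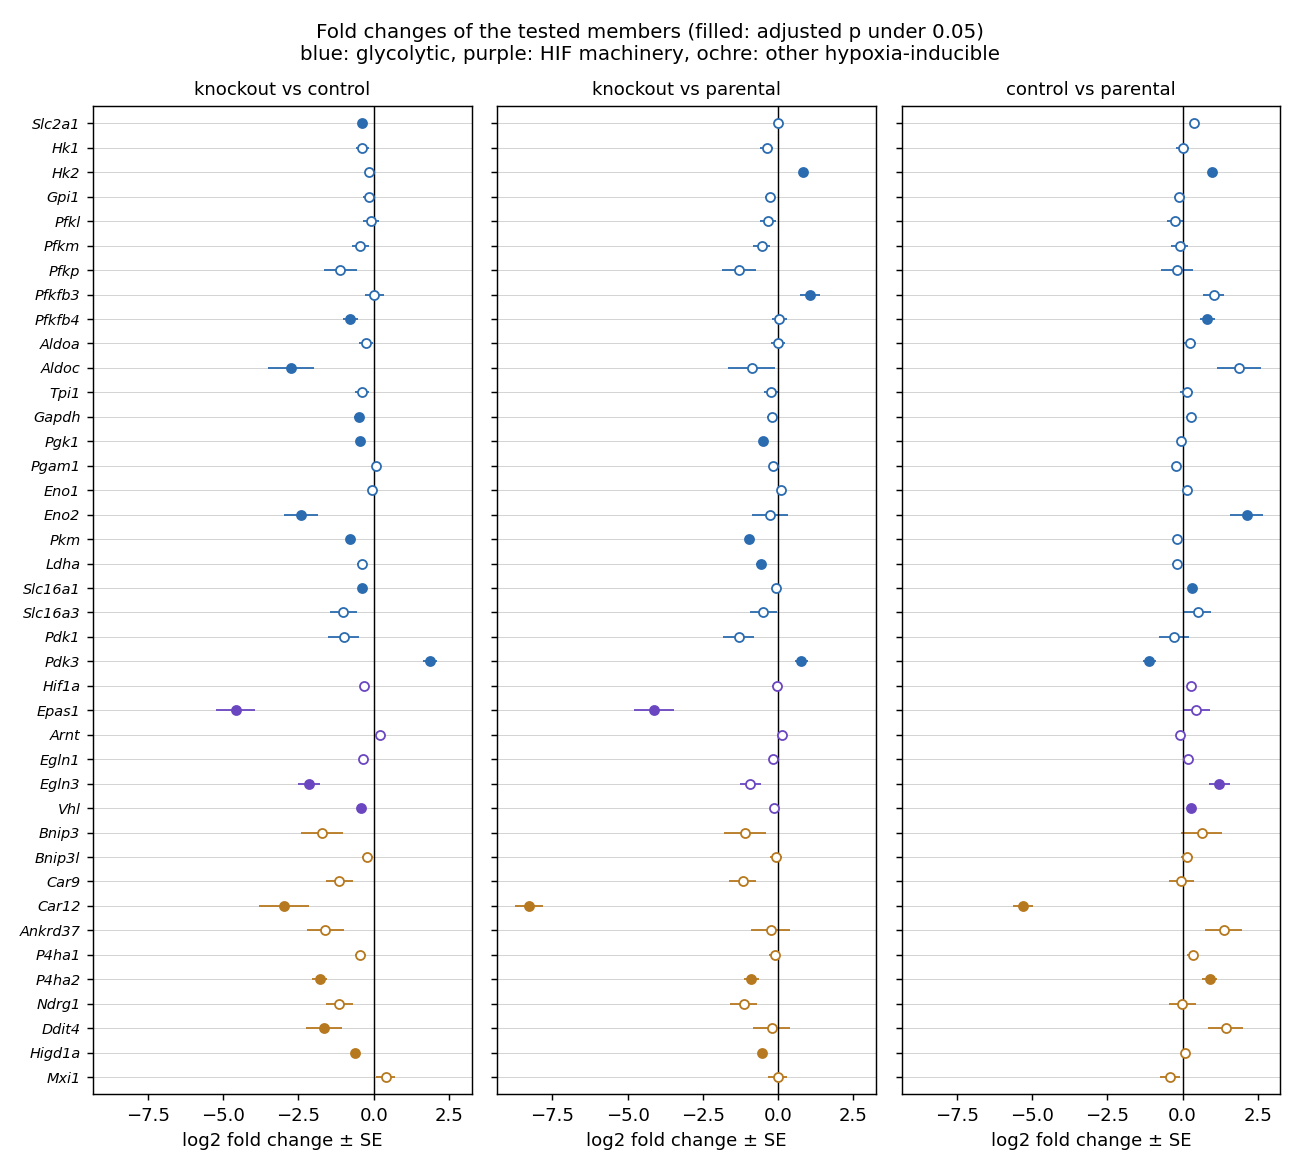
The points give the log2 fold change of each tested member with its SE, in 1 panel per comparison, and filled points passed an adjusted p of 0.05. Epas1 and Car12 lie farthest to the left in the knockout comparisons, and Pdk3 is the 1 filled point to the right of 0 for knockout against control.

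Among the genes of glucose entry, Hk2 set the parental cells apart from both clones. Hk2, the inducible hexokinase that traps glucose in the cell, had 116, 111 and 110 CPM in the knockout, 106, 129 and 138 in the control and 73.9, 61.5 and 53.1 in the parental cells. All 6 libraries of the clones lay above all 3 of the parental line. Its log2 fold change was 0.84 (SE 0.13, adjusted p = 0.00136) for knockout and 0.98 (SE 0.13, adjusted p = 0.00124) for control against parental, and -0.15 (adjusted p = 0.39) between the clones. Hk1, the constitutive hexokinase, had means of 130, 170 and 170 CPM and was called in no comparison.

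Slc2a1, which encodes the glucose transporter GLUT1, had 91.2, 81.8 and 91.6 CPM in the knockout, 120, 90.4 and 139 in the control and 83.4, 86.2 and 97.6 in the parental cells. Control replicate 2 lay among the knockout libraries, and the other control libraries lay above all others. The knockout was lower than the control by a log2 fold change of -0.40 (SE 0.14, adjusted p = 0.0458), and that call was lost when any library other than control replicate 2 was left out (adjusted p = 0.0668 to 0.16). Against the parental cells Slc2a1 had a log2 fold change of -0.01 (adjusted p = 0.953). Slc2a3, the transporter GLUT3, had 3, 9 and 4 counts in the knockout, control and parental groups and was not tested. Gpi1, the isomerase of the next step, was called in no comparison.

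At the phosphofructokinase step the 2 regulators differed between groups and the enzymes were not called. Pfkp, the platelet-type phosphofructokinase, had 10.2, 9.96 and 9.99 CPM in the knockout, 18.1, 5.41 and 41.3 in the control and 18.4, 23.8 and 32.1 in the parental cells. The knockout libraries had an SD of 0.135 CPM and lay below the parental libraries, while the control libraries spanned both. Knockout against control gave -1.11 (SE 0.55, adjusted p = 0.131) and knockout against parental -1.3 (SE 0.55, adjusted p = 0.102); without control replicate 2 these were -1.55 (adjusted p = 0.00261) and -1.29 (adjusted p = 0.00619). Without control replicate 3, knockout against control gave -0.25 (adjusted p = 0.642) and knockout against parental -1.29 (adjusted p = 0.0184). Pfkl and Pfkm, the liver and muscle types, were called in no comparison. Without control replicate 2, Pfkm was called lower in the knockout than in the control (-0.74, adjusted p = 0.00201, from -0.45) and than in the parental cells (-0.55, adjusted p = 0.00785).

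Pfkfb3 and Pfkfb4 make fructose 2,6-bisphosphate, the activator of phosphofructokinase. Pfkfb3 had 12.7, 15.2 and 12.2 CPM in the knockout, 11.7, 20.9 and 7.3 in the control and 7.9, 6.31 and 5.12 in the parental cells. All knockout libraries lay above the parental libraries, and it was the member whose control replicates ran in the opposite order, replicate 2 being the highest. The knockout was higher than the parental cells by 1.05 (SE 0.34, adjusted p = 0.0394), a call lost without any 1 of the 6 knockout and parental libraries or without control replicate 1 (adjusted p = 0.0514 to 0.132), and control against parental gave 1.03 (adjusted p = 0.0549), with 1.32 (adjusted p = 0.00567) without control replicate 3 and 0.55 (adjusted p = 0.0958) without control replicate 2. That value was also called without a filter (adjusted p = 0.0108), with DESeq2 (adjusted p = 0.0151) and with the replicate block (adjusted p = 0.0392). Pfkfb4 averaged 4.16, 7.17 and 4.06 CPM in the knockout, control and parental cells. It was lower in the knockout than in the control by -0.78 (SE 0.25, adjusted p = 0.0308) and higher in the control than in the parental cells by 0.82 (SE 0.25, adjusted p = 0.0446). Pfkfb4 lies on chromosome 9, with its median of -0.53 for knockout against control, and the part of this shift in the result was not tested. Both Pfkfb4 calls were lost without control replicate 3 (-0.55, adjusted p = 0.0854, and 0.60, adjusted p = 0.0865) and without control replicate 1 (-0.82, adjusted p = 0.0599, and 0.86, adjusted p = 0.0809). The first was also lost without knockout replicates 2 or 3 or parental replicate 2, and the second without knockout replicates 1 or 2 or any parental library.

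From aldolase to enolase, the isozymes Aldoc and Eno2 were called with the largest fold changes, and Aldoa and Eno1, the isozymes with the higher level per length, were not called. Aldoc had 7.52, 6.84 and 10.2 CPM in the knockout, 39.7, 6.96 and 118 in the control and 11.3, 14.2 and 19.7 in the parental cells. Control replicate 2 lay among the knockout libraries and replicates 1 and 3 above every other library. The log2 fold change of Aldoc was -2.75 (SE 0.77, adjusted p = 0.0172) for knockout against control, which was not called after leaving out knockout replicate 1 (adjusted p = 0.063) or 2 (adjusted p = 0.0637), and 1.87 (adjusted p = 0.0994) for control against parental. Without control replicate 3 these were -1.53 (adjusted p = 0.0492) and 0.66 (adjusted p = 0.39), without control replicate 2 the latter was 2.39 (adjusted p = 0.00236), and for the former limma's voom gave -2.03 (adjusted p = 0.123). Eno2, the neuron-type enolase, had 1.32, 1 and 0.993 CPM in the knockout, 5.54, 1.73 and 10.5 in the control and 1.01, 1.3 and 1.77 in the parental cells. Control replicates 1 and 3 lay above every other library, and replicate 2 lay between the parental libraries. Eno2 was lower in the knockout than in the control by -2.41 (SE 0.56, adjusted p = 0.00689) and higher in the control than in the parental cells by 2.13 (SE 0.55, adjusted p = 0.0229), the latter lost without any 1 parental library (adjusted p = 0.0523 to 0.0952). Without control replicate 3 these values of Eno2 were -1.73 (adjusted p = 0.0136) and 1.45 (adjusted p = 0.0387).

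Pgk1, the phosphoglycerate kinase that recovers ATP in the pathway, had 754, 840 and 900 CPM in the knockout, 1180, 893 and 1330 in the control and 1020, 1170 and 1350 in the parental cells. Every knockout library lay below every parental library, and control replicate 2 lay among the knockout libraries. Knockout against control gave a log2 fold change of -0.45 (SE 0.15, adjusted p = 0.0382), and knockout against parental -0.50 (SE 0.15, adjusted p = 0.0322). The first call was lost without any 1 knockout library, control replicate 1 or 3 or parental replicate 2 (adjusted p = 0.0598 to 0.148), the second without any 1 knockout library or parental replicate 2 or 3 (adjusted p = 0.0577 to 0.135). Gapdh, the dehydrogenase of the same stage, was lower in the knockout than in the control by -0.48 (SE 0.17, adjusted p = 0.0433), a call lost without any library other than control replicate 2 (adjusted p = 0.0644 to 0.127). Aldoa, Tpi1, Pgam1 and Eno1, the abundant aldolase, triosephosphate isomerase, phosphoglycerate mutase and enolase, were called in no comparison. Without control replicate 2, Aldoa and Tpi1 were called lower in the knockout than in the control (-0.48, adjusted p = 0.025, and -0.63, adjusted p = 0.00246) and higher in the control than in the parental cells (0.46, adjusted p = 0.0485, and 0.38, adjusted p = 0.0478). Eno1 averaged 866, 906 and 822 CPM and Pgam1 984, 945 and 1100 CPM in the knockout, control and parental cells. Reads of Gapdh, Pgk1, Pgam1, Ldha and Aldoa can also match processed pseudogenes, so these values are uncertain.

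Pkm, the pyruvate kinase of most tumours, was lower in the knockout than in both other groups. It had 2010, 1970 and 2030 CPM in the knockout, 3370, 2760 and 4230 in the control and 3780, 3800 and 4130 in the parental cells. No knockout library reached any library of the other groups. Pkm gave -0.78 (SE 0.13, adjusted p = 0.00137) for knockout against control and -0.96 (SE 0.13, adjusted p = 0.000732) for knockout against parental, both log2 fold changes. Pkm lies on chromosome 9, where the median log2 fold change of 748 tested genes was -0.53 in each of these comparisons, against -0.02 and -0.01 over all genes; the part of this shift in the result was not tested.

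Ldha, which reduces pyruvate to lactate, had 925, 875 and 1020 CPM in the knockout, 1260, 906 and 1510 in the control and 1210, 1360 and 1590 in the parental cells. All knockout libraries lay below the parental libraries, and control replicate 2 lay among the knockout libraries. Knockout against parental gave -0.56 (SE 0.17, adjusted p = 0.0347), lost without any 1 knockout library, control replicate 1 or parental replicate 2 or 3 (adjusted p = 0.0511 to 0.14), and knockout against control gave -0.38 (adjusted p = 0.1), called without control replicate 2 (-0.56, adjusted p = 0.00401) and at -0.21 (adjusted p = 0.296) without control replicate 3. Ldhb, the other main subunit of lactate dehydrogenase, had 0 counts in all 9 libraries, which allows up to 0.0177 CPM over all of them (3 counts). Ldha was thus the one of this pair with any counts in this line.

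Of the monocarboxylate carriers, Slc16a1 (MCT1) was highest in the control and Slc16a3 (MCT4) was not called. Slc16a1 averaged 229 ± 8.58 CPM in the knockout, 298 ± 26.9 in the control and 239 ± 4.5 in the parental cells (SD, n = 3). Slc16a1 gave -0.38 (SE 0.08, adjusted p = 0.00425) for knockout against control and 0.32 (SE 0.08, adjusted p = 0.0205) for control against parental, the latter lost without control replicate 1 (0.25, adjusted p = 0.0601) or without any 1 parental library (adjusted p = 0.0771 to 0.095). Slc16a3 had 77.5, 55.8 and 83.7 CPM in the knockout, 144, 48.7 and 243 in the control and 86, 95.2 and 126 in the parental cells, so control replicate 2 was the lowest of the 9 libraries and replicate 3 the highest. Its log2 fold change for knockout against control was -1.01 (SE 0.45, adjusted p = 0.0984), -1.41 (adjusted p = 0.000874) without control replicate 2 and -0.42 (adjusted p = 0.392) without control replicate 3.

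The pyruvate dehydrogenase kinases hold pyruvate back from the mitochondrial dehydrogenase, and the 2 members of this family differed in pattern. Pdk1 had 41.2, 31.5 and 50.3 CPM in the knockout, 85.8, 23 and 137 in the control and 77.7, 89.6 and 137 in the parental cells. All knockout libraries lay below the parental libraries, and control replicate 2 was the lowest of all. Knockout and parental libraries did not overlap, in either direction, in 61.5% of all genes. Pdk1 was called in neither knockout comparison, with -1 (SE 0.51, adjusted p = 0.138) and -1.31 (SE 0.51, adjusted p = 0.0792) against control and parental cells, and in both without control replicate 2 (-1.44, adjusted p = 0.00168, and -1.3, adjusted p = 0.00251). Without control replicate 3 its knockout against control value was -0.42 (adjusted p = 0.483). Pdk3 had 30.1, 30.0 and 32.5 CPM in the knockout, 8.29, 5.06 and 11.8 in the control and 18.5, 18.3 and 17.3 in the parental cells. The 3 groups did not overlap: the knockout was highest and the control lowest.

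Pdk3 was higher in the knockout than in the control by 1.87 (SE 0.23, adjusted p = 0.000261) and lower in the control than in the parental cells by -1.10 (SE 0.23, adjusted p = 0.0104). Against the parental cells the knockout was higher by 0.77 (SE 0.22, adjusted p = 0.0262), a call lost when any 1 of the 6 libraries compared was left out (adjusted p = 0.0667 to 0.0943). Pdk3 was the 1 called member that was higher in the knockout than in the control. Within the control it kept the order of most members, lowest in replicate 2 and highest in replicate 3.

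**Figure D4:**
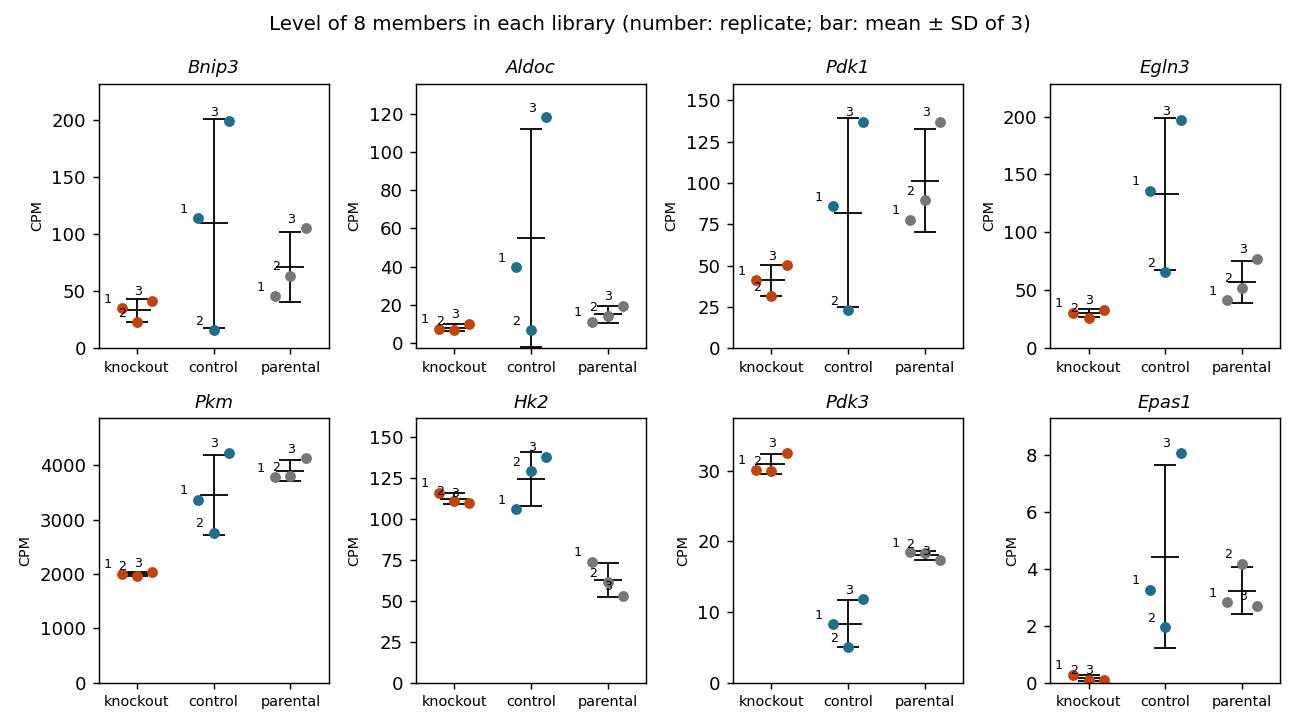
The points give CPM of 8 members in each library, numbered by replicate, with the mean and SD of 3 libraries as bars, and the Aldoc bar of the control reaches below 0. The control points of Bnip3, Aldoc, Pdk1 and Egln3 spread from replicate 2 at the bottom to replicate 3 at the top, while the groups of Pdk3 do not overlap.

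In the HIF machinery, Epas1, the gene of HIF-2 alpha, was nearly absent from the knockout clone, while Hif1a and Arnt were called in no comparison. Epas1 had 0.293, 0.111 and 0.117 CPM in the knockout, 3.27, 1.96 and 8.08 in the control and 2.84, 4.18 and 2.71 in the parental cells, from 10, 262 and 176 counts per group. Every knockout library lay below every other library, and the level was low in all groups. Knockout against control gave -4.59 (SE 0.66, adjusted p = 0.000539), knockout against parental -4.13 (SE 0.67, adjusted p = 0.00161) and control against parental 0.46 (adjusted p = 0.521), all as log2 fold changes. The first was -3.84 (adjusted p = 0.000223) without control replicate 3, and the first and second were -5.19 (adjusted p = 0.00298) and -4.75 (adjusted p = 0.00724) without knockout replicate 1.

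Hif1a, the gene of HIF-1 alpha, had 250, 215 and 261 CPM in the knockout, 287, 243 and 379 in the control and 244, 266 and 241 in the parental cells. The groups overlapped, and control replicate 3 was the highest library. Knockout against control gave -0.32 (SE 0.15, adjusted p = 0.106), -0.45 (adjusted p = 0.0111) without control replicate 2 and -0.13 (adjusted p = 0.32) without control replicate 3. Arnt had 80.1, 78.9 and 79.7 CPM in the knockout, 66.6, 57.2 and 82.4 in the control and 73.9, 68.8 and 73.4 in the parental cells. The knockout libraries lay above the parental ones and within the range of the control, and knockout against control gave 0.21 (SE 0.12, adjusted p = 0.174), but 0.36 (adjusted p = 0.00526) without control replicate 3. Per length of exon sequence (counts per kilobase, scaled to a fixed total per library), Hif1a averaged 130, 146 and 134 units and Epas1 0.0982, 2.25 and 1.84 in the knockout, control and parental cells, so the HIF-1 alpha transcript was the more abundant of the pair in every group.

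Egln3, a prolyl hydroxylase that is itself a HIF target, was highest in the control. It had 30.7, 26.4 and 33.1 CPM in the knockout, 136, 65.6 and 197 in the control and 41.6, 52.2 and 77.2 in the parental cells. All knockout libraries lay below all others, and control replicate 2 lay between parental replicates 2 and 3. Knockout against control gave -2.14 (SE 0.36, adjusted p = 0.00138) and control against parental 1.22 (SE 0.35, adjusted p = 0.0357), the latter lost without any 1 library other than control replicate 2 or parental replicate 3 (adjusted p = 0.0564 to 0.134). Knockout against parental gave -0.92 (SE 0.36, adjusted p = 0.0777), called without control replicate 2 (adjusted p = 0.00786) or 3 (adjusted p = 0.0296). Egln3 and Hif1a lie on chromosome 12, whose 466 tested genes had medians of -0.25 for knockout against control and 0.29 for control against parental; the part of this shift in the result was not tested.

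Vhl, the substrate receptor that marks the alpha subunits for degradation, was the member with the narrowest spread of those that set the control apart. It had 25.8, 24.6 and 28 CPM in the knockout, 37.4, 32.7 and 35.5 in the control and 27.6, 29.1 and 29.9 in the parental cells. All control libraries lay above all others. Vhl gave -0.43 (SE 0.09, adjusted p = 0.00391) for knockout against control and 0.29 (SE 0.09, adjusted p = 0.0458) for control against parental, the latter lost without any 1 library other than control replicates 2 and 3 (adjusted p = 0.0641 to 0.187). That call was also lost with DESeq2 size factors, total counts, no filter, a mean of at least 5 CPM, the replicate block and only the groups compared (adjusted p = 0.0504 to 0.147). Egln1, the main oxygen-sensing hydroxylase, averaged 125, 161 and 142 CPM and was called in no comparison. Its log2 fold change for knockout against control was -0.36 (adjusted p = 0.0632), -0.51 (adjusted p = 0.00166) without control replicate 2 and -0.19 (adjusted p = 0.158) without control replicate 3.

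Among the other hypoxia-inducible genes, P4ha2 and Car12 differed most clearly, and Bnip3 spread widely among the control libraries and was not called. P4ha2, a collagen prolyl hydroxylase, had 10.5, 10.7 and 8.82 CPM in the knockout, 33.5, 22.3 and 48.4 in the control and 16.3, 19.5 and 20.2 in the parental cells. The 3 groups did not overlap. As log2 fold changes P4ha2 gave -1.79 (SE 0.25, adjusted p = 0.000454) for knockout against control, -0.89 (SE 0.25, adjusted p = 0.0223) for knockout against parental and 0.90 (SE 0.24, adjusted p = 0.0261) for control against parental. The second was lost without any 1 knockout library or parental replicate 2 or 3 (adjusted p = 0.0564 to 0.0817), the third without control replicate 1 or any 1 parental library (adjusted p = 0.0564 to 0.107). P4ha1, its close relative, averaged 47.4, 64.8 and 51.6 CPM and was called in no comparison.

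Car12, a membrane carbonic anhydrase, was present in the parental cells and nearly absent from both clones. It had 0, 0.0556 and 0 CPM in the knockout, 0.175, 0.178 and 0.21 in the control and 6.65, 8.02 and 8.41 in the parental cells, from 1, 11 and 417 counts. Both clones lay below the parental libraries without overlap. The parental level was 423 times that of the knockout (95% counting interval 75.6 to 16800), and control against parental gave a log2 fold change of -5.31 (SE 0.33, adjusted p = 2.28e-05). The control was 10.4 times the knockout (counting interval 1.51 to 448, adjusted p = 0.00984), which rests on 1 count against 11 and was lost without knockout replicate 1 (adjusted p = 0.0606). Car12 also lies on chromosome 9. These intervals cover counting error only. Car9, the related carbonic anhydrase often used as a marker of hypoxia, had 0.635, 0.223 and 0.467 CPM in the knockout, 1.18, 0.952 and 0.84 in the control and 0.674, 0.884 and 1.53 in the parental cells. Its knockout libraries lay below all others, but at 25, 59 and 55 counts per group the fold changes of -1.15 (adjusted p = 0.063) and -1.18 (adjusted p = 0.0723) against control and parental cells were not called.

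Bnip3, which draws mitochondria into autophagy, had 35.1, 22.5 and 41.7 CPM in the knockout, 114, 15.8 and 199 in the control and 45.6, 63.4 and 105 in the parental cells. Control replicate 2 was the lowest and replicate 3 the highest of all 9 libraries, and all knockout libraries lay below the parental ones. Knockout against control gave -1.73 (SE 0.70, adjusted p = 0.0701) and knockout against parental -1.11 (SE 0.69, adjusted p = 0.25); without control replicate 2 these were -2.24 (adjusted p = 6e-04) and -1.10 (adjusted p = 0.0226). Without control replicate 3, Bnip3 gave -0.99 (adjusted p = 0.238) for knockout against control, and without a filter on low counts it was called (-1.71, adjusted p = 0.0082). Bnip3l, its paralogue, averaged 148, 171 and 155 CPM and was called in no comparison. Ddit4 had 9.67, 6.68 and 13.7 CPM in the knockout, 24.7, 7.5 and 61.6 in the control and 11, 11.3 and 12.6 in the parental cells. Control replicates 1 and 3 lay above all others and replicate 2 among the knockout libraries. Ddit4 gave -1.65 (SE 0.59, adjusted p = 0.0473) for knockout against control, a call lost without any 1 library other than control replicate 2 and down to -0.71 (adjusted p = 0.2) without control replicate 3.

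Higd1a, a mitochondrial protein induced by hypoxia, averaged 27.2 ± 2.42 CPM in the knockout, 41.8 ± 7.95 in the control and 39.4 ± 4.58 in the parental cells (SD, n = 3). Higd1a was lower in the knockout than in the control by -0.62 (SE 0.15, adjusted p = 0.00846) and than in the parental cells by -0.53 (SE 0.15, adjusted p = 0.0236), the latter lost without knockout replicate 1 or 2 or parental replicate 2 or 3 (adjusted p = 0.0693 to 0.103). Higd1a lies on chromosome 9, whose median was -0.53 in both comparisons, and the part of this shift in the result was not tested. Ankrd37, Ndrg1 and Mxi1 were called in no comparison. Ankrd37, an ankyrin repeat protein, and Ndrg1, a stress-induced protein, were called lower than in the control without control replicate 2 (-2.08, adjusted p = 0.000394, and -1.55, adjusted p = 0.000442), and had -0.90 (adjusted p = 0.211) and -0.52 (adjusted p = 0.269) without control replicate 3. Mxi1, an antagonist of MYC, averaged 48.6, 36.9 and 49.5 CPM and was the 1 member of this set with a positive log2 fold change for knockout against control (0.39, adjusted p = 0.345). Adm, the gene of the vasodilator adrenomedullin, was too low to be tested, with 11, 106 and 3 counts in the knockout, control and parental groups. Its control libraries had 2.18, 0.0595 and 2.89 CPM, so again replicate 2 was the lowest.

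The glycolytic genes and the other hypoxia-inducible genes had medians of the same sign in every comparison, and the medians of the latter lay farther from 0 in both knockout comparisons. Against the control, 9 of 23 glycolytic genes were called (1 higher, 8 lower) with a median log2 fold change of -0.38, and 4 of 11 other hypoxia-inducible genes (all lower) with a median of -1.15. Of the HIF machinery, 3 of 6 genes were called, all lower, with a median of -0.40. These shares of 39.1%, 36.4% and 50% stand beside 42.9% of all genes. Against the parental cells the medians were -0.27 for the glycolytic genes (3 called higher, 3 lower), -0.53 for the other hypoxia-inducible genes (0 higher, 3 lower) and -0.16 for the HIF machinery (1 lower), with 26.1%, 27.3% and 16.7% called beside 31.4% of all genes. Control against parental gave medians of 0.13, 0.14 and 0.28, with 5, 2 and 2 called for the glycolytic, other hypoxia-inducible and HIF machinery genes (21.7%, 18.2% and 33.3%, beside 21.4%). The difference between these sets was not tested. Over the same 11 genes, the knockout against control median of the other hypoxia-inducible genes was -1.55 without control replicate 2 and -0.71 without control replicate 3, and that of the 23 glycolytic genes -0.59 and -0.25. For knockout against parental the medians lay between -0.45 and -0.61 for the former and between -0.15 and -0.32 for the latter when any 1 library was left out. Both medians of control against parental were negative (-0.02 and -0.14) without control replicate 3. Relative to each gene's mean, the other hypoxia-inducible genes had medians of -0.49, -0.73 and -0.23 (log2) in the knockout libraries, 0.43, -0.85 and 0.61 in the control libraries and -0.12, 0.15 and 0.32 in the parental libraries. The glycolytic genes had -0.19, -0.24 and -0.18, then 0.20, -0.36 and 0.53, then -0.05, 0.03 and 0.23. Both sets were thus lowest in control replicate 2 and highest in control replicate 3.

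On the same scale per length of exon sequence, the levels were highest for the steps from aldolase to lactate dehydrogenase. In the parental cells Pkm averaged 2470, Pgam1 1760, Pgk1 1660, Ldha 1320, Tpi1 957, Gapdh 786, Aldoa 593 and Eno1 483. The upper steps were lower, with Gpi1 at 162, Pfkm at 97.4, Slc2a1 at 80.2, Pfkl at 66.3, Hk1 at 62.8 and Hk2 at 33.3. The length joins all annotated exons of a gene and can exceed that of the expressed transcript, so the order of genes on this scale is uncertain. In the knockout Hk2 averaged 59.5 and Hk1 48.3 per length, but Hk1 had the more counts there (7251 against 6260). In the parental cells Hk1 was the higher of the 2 hexokinases by both measures. In the control they averaged 59.1 and 56.3, which differ by less than the spread of the control libraries. Pgam1 at 1570, Pkm at 1270 and Pgk1 at 1170 led in the knockout, and Pkm at 1960, Pgk1 at 1430 and Pgam1 at 1350 in the control.

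Further genes of the same pathways, listed by pathway, were read beside the members. Of 36 further glycolysis genes 23 were tested: against the control the knockout had 3 called higher and 10 lower, against the parental cells 1 higher and 7 lower, and the control against the parental cells 1 higher and 3 lower. These are 56.5%, 34.8% and 17.4% of the 23, beside 42.9%, 31.4% and 21.4% of all genes. Ldhd, the mitochondrial D-lactate dehydrogenase, and Pklr, the liver and red cell pyruvate kinase, were lower in the knockout than in both others, with log2 fold changes of -2.42 and -1.84 for Ldhd and -1.63 and -1.96 for Pklr against control and parental cells. Hkdc1, a hexokinase relative, was higher in the parental cells than in both clones (-1.79 for knockout and -3.62 for control against parental). It was also called lower in the control than in the knockout, and had only 38, 11 and 129 counts in the knockout, control and parental groups. Slc2a6, a member of the glucose transporter family, was higher in the control than in both others (-2.62 for knockout against control and 1.82 for control against parental). Of 39 further hypoxia genes 33 were tested, with 5 called higher and 8 lower against the control, 7 higher and 3 lower against the parental cells, and 4 higher and 1 lower in the control than in the parental cells. Stc2, a secreted glycoprotein, had 0 counts in the knockout, which is at least 21.7-fold lower than the control and 14.9-fold lower than the parental cells (3 counts over the group). Rora, a nuclear receptor, was lower in both clones than in the parental cells, by -3.13 for the knockout and -1.83 for the control. With 4, 11 and 37 counts in the knockout, control and parental groups, the size of these changes is uncertain. The called shares of this list were 39.4%, 30.3% and 15.2%. The median of these further hypoxia genes was -0.06 for knockout against control and 0.08 for knockout against parental. The 11 tested other hypoxia-inducible members had -1.15 and -0.53. The lists are not alike, as the further list also holds HIF regulators such as Egln2, Hif1an and Cited2. Of 9 pentose phosphate genes 7 were tested, with 1 called higher and 2 lower against the control (42.9% of the 7) and 1 lower against the parental cells (14.3%).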

How the data were processed

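RNA was measured in 9 libraries made from total RNA with the KAPA mRNA HyperPrep kit, per the labels' protocols. The deposited values are RSEM estimated counts per gene for 54838 Ensembl identifiers, which the authors made from their reads; all were whole numbers, so rounding changed none. The submitters' processing notes name RSEM 1.3.0, STAR 2.5.2, DESeq2 1.10.1 and build GRCm38. The annotation and the strand setting are not given in the sources used here, so overlapping and antisense genes cannot be told apart. RSEM splits reads that match several genes, and 7 members have named processed pseudogenes. Symbols, exon lengths and overlaps came from GENCODE M21 (GRCm38), which held 54809 of the identifiers. Aldoa is carried by 2 identifiers, and the one with 75 counts in all was not used.

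Counts were fitted with edgeR 4.0.16 (R 4.3.3), with TMM scaling, its filter on low counts (minimum 10, total 15) and the quasi-likelihood test over 13153 genes, all 9 libraries in 1 fit with group as the only term. The adjusted p is Benjamini-Hochberg over these genes, and each SE was taken from the fold change (log2) and the F statistic. CPM are scaled by TMM. Levels per length are counts per kilobase of exon scaled to 1000000 in each library. A floor of 3 counts over a group and exact 95% counting intervals were used for low counts, and both cover counting error only. The steps were tested on simulated data. Replicate numbers did not pair the samples (correlations of same-numbered libraries -0.22 to 0.34), and the fit had no block.

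The members and lists were chosen with earlier results of these data known. Values per library are given for members called in at least 1 comparison with a log2 fold change of 1 or more, and for Slc2a1, Hk2, Pfkp, Pgk1, Ldha, Hif1a, Epas1, Arnt, Vhl, Car9 and Bnip3. Pkm, Pdk1, Slc16a3 and Adm were added after their values were seen. Of each further list up to 4 genes are named, those called the same way, and past 2-fold, in both comparisons of a group, ranked by the smaller change, and the other further hypoxia genes of the closing observations were chosen after their values were seen. The alternatives were DESeq2 size factors, total counts, no filter, a mean of at least 5 CPM, DESeq2 1.42.0, limma 3.58.1 (voom), the replicate number as a block, only the groups compared, a 2-fold minimum, and each library left out in turn, and none was added later.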

Additional observations from a re-analysis of the deposited data

How the results depend on the processing

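Of the members' log2 fold changes none that was called reversed its sign under the alternatives. Under the other scalings, filters, tools, fits and leave-one-out settings in which each could be tested, but not under the 2-fold minimum, 9 of the 16 calls against the control held (Eno2, Pkm, Slc16a1, Pdk3, Epas1, Egln3, Vhl, P4ha2 and Higd1a), against the parental cells 4 of 10 (Hk2, Pkm, Epas1 and Car12), and between control and parental cells 3 of 9 (Hk2, Pdk3 and Car12). Without a filter on low counts, 25 of 42 members and 22.6% of all genes were called for knockout against control. With only the groups compared in the fit, 10, 25 and 3 members were called for knockout against control, knockout against parental and control against parental, beside 34.1%, 53.5% and 11.8% of all genes. With a 2-fold minimum, which drops Pkm, Slc16a1, Vhl, Higd1a and Hk2 among those, 8, 3 and 4 were called, beside 14%, 10.6% and 6.47%. Leaving out 1 library at a time gave 10 to 33, 4 to 17 and 3 to 23, beside 32.1% to 53.5%, 18.7% to 42.7% and 11% to 30.8%. With the replicate block, 17, 12 and 8 were called, beside 42%, 30% and 18.9%; same-numbered libraries did not all deviate together, and control replicate 2 correlated best with parental replicate 1 (0.47), so the numbers are not read as pairs. The spread among the control replicates and the low counts of Car12, Car9, Adm, Slc2a3 and Ldhb limit what can be said of the control and of these genes.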

Other observations

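Among the further hypoxia genes, 3 of 33 were higher in the control than in both other groups, beside 7.01% of all genes. Bhlhe40, a transcriptional repressor, averaged 78.9, 183 and 96.8 CPM in the knockout, control and parental cells, Vegfa, the endothelial growth factor, 209, 309 and 160 CPM, and Hilpda, a lipid droplet protein, 38.9, 66.4 and 24.3 CPM. Another 3 were higher in the knockout than in both, beside 8.19% of all genes, and Stc2 and Fam162a were lower. Cited2, which competes with HIF for a coactivator, averaged 163, 68.1 and 82.8 CPM, Nfil3, a transcription factor, 16.3, 10.3 and 10.5 CPM, and Plin2, a lipid droplet coat protein, 197, 126 and 92.3 CPM. In the parental cells Rora was higher, at low counts, and Plin2 and Hilpda were lower, than in both clones.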
